A study of Mus musculus with 5 samples.

Results

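Eph receptors and ephrins were followed in laser-captured intestinal epithelium through 10 named genes: the receptors Ephb3, Ephb4, Ephb6, Epha1, Epha2 and Epha4, and the ligands Efna1, Efna4, Efnb1 and Efnb2. They were found by gene symbol in the platform annotation and had 19 of the 22626 probe sets tested, or 10 of the 12393 genes with a symbol of their own. Expression was measured on 5 Affymetrix arrays. Tumours arising in the intestine of Apc1638N mice gave 3 arrays (tumours 16, 18 and 2), and healthy intestinal epithelium of wild-type mice gave 2 (wild types 36 and 62). All animals were C57Bl6/J males of 8 months, so that the groups differ in tissue and in the Apc1638N allele together. Apc1638N mice carry a truncating mutation of Apc, a scaffold protein that restrains Wnt signalling. The labels name no segment of the intestine, no uninvolved mucosa of Apc1638N mice was compared here, and the labels do not say that each array came from its own animal. The p-values therefore measure the spread between these samples, which may be technical, and 5 arrays limit the precision.

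Eph receptors are receptor tyrosine kinases that bind ephrins on the surface of neighbouring cells. The signal runs both ways, forward into the cell with the receptor and in reverse into the cell with the ephrin, and commonly makes cells repel each other. Ephrins of class A are held to the membrane by a lipid anchor, and those of class B cross it. In the mouse intestine EphB receptors are known as Wnt target genes of the crypt, while ephrin-B ligands are made by cells nearer the villus, and their contact keeps the compartments apart.

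The promoters of 4 members are shown in the 250 bases before the RefSeq gene start (build GRCm38.p6), read along the gene's own strand. Ephb3, Epha4 and Epha1 are shown because each had a called probe set, and Efna4 because it held most matches of the motif searched. Ephb3 lies at chr16:21204545-21204794, plus strand, Epha4 at chr1:77515089-77515338, minus strand, Epha1 at chr6:42373269-42373518, minus strand, and Efna4 at chr3:89338029-89338278, minus strand. Capitals mark the TCF/LEF core, the motif of the factors that carry Wnt signals to DNA, searched as CTTTGA or CTTTGT on both strands.
Ephb3: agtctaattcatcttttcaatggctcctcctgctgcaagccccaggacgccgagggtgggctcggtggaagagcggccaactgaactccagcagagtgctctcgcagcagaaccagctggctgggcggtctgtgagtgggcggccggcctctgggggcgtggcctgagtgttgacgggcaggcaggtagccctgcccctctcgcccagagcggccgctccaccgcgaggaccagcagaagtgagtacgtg
Epha4: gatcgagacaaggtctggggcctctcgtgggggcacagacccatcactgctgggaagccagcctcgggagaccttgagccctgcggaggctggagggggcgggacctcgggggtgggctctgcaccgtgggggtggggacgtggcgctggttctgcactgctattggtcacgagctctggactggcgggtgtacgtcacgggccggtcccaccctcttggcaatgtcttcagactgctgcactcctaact
Epha1: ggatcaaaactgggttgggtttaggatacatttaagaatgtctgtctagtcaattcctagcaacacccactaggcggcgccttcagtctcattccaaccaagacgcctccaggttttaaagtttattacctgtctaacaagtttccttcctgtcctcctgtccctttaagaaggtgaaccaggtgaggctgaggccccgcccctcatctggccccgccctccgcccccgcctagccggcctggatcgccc
Efna4: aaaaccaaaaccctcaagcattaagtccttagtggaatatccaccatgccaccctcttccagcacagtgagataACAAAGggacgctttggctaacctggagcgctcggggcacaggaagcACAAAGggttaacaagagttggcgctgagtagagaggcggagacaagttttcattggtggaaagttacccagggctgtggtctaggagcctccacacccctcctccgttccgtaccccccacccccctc

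None of the Ephb3, Epha4 and Epha1 windows held the core, while Efna4 held 2 matches, both on the strand opposite to the gene. Among the other members Epha2 held 1 match, and the windows of Ephb4, Ephb6, Efna1 (with 2 starts), Efnb1 and Efnb2 held 0. Over all 32851 promoters of this length 27.6% held the core, so a match or its lack says little of any single gene. The E-box CACGTG, which Myc can bind, stood in 0 member windows, against 6.02% of all promoters. The 2 forms of the core differ in their last base, so they cannot both match at 1 start on a strand, and the E-box was counted apart.

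The members moved little and in different directions. Of their 19 probe sets, 2 were called higher in tumours (Ephb3 and 1 of 2 for Epha4), 1 was called lower (1 of 3 for Epha1) and 16 were not called. Over all probe sets 18.3% were called, 9.58% higher and 8.72% lower, so that the members' count of 3 lay near the background. The median change of the member probe sets was -0.06 on the log2 scale and that of all probe sets 0.00203. In 9 of the 19 no tumour array lay within the range of the wild-type arrays or the reverse, as in 47.9% of all probe sets. By the brightest probe set of each gene, 1 of the 10 genes was called higher (Ephb3) and 0 lower. No member probe set reached a change of 1 on the log2 scale in either direction. The values of every array stand in the plot of signals by probe set.

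**Figure D1:**
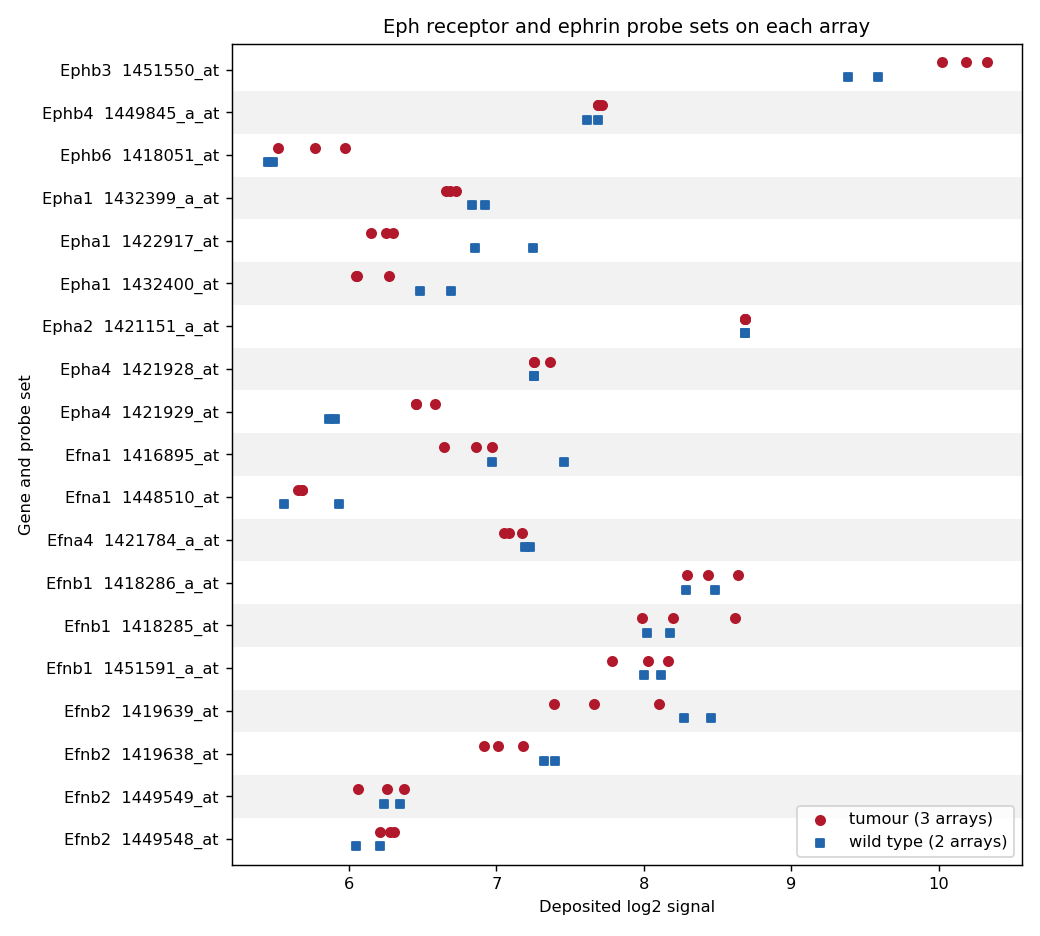
Deposited log2 signal (horizontal axis) of the 19 Eph receptor and ephrin probe sets, with 3 tumour arrays as circles and 2 wild-type arrays as squares. Tumours lie above wild type for Ephb3, between 10.02 and 10.33 against 9.59 and 9.39, and below it in all 3 Epha1 probe sets. Signals of different probe sets are not comparable with each other.

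The arrays differed as samples before any gene is considered. Array medians lay between 6.84 and 6.87 in tumours and at 6.81 and 6.83 in wild type, and tumour 2 was the tumour closest to wild type (r = 0.937 and 0.931 across probe sets). The 3' minus 5' difference of beta-actin control signal, a sign of RNA length, was 3.999, 4.25 and 4.21 in tumours 16, 18 and 2, against 3.32 and 2.51 in wild types 36 and 62. The same difference for Gapdh was 4.50, 4.59 and 4.83 in tumours, against 4.01 and 3.67 in wild type. Both differences were larger in every tumour array than in either wild-type array, and their part in the results was not tested.

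Ephb3, the EphB receptor known from Paneth and progenitor cells of the mouse crypt, rose in tumours. Its log2 signal was 10.02, 10.33 and 10.19 in tumours 16, 18 and 2, against 9.59 and 9.39 in wild types 36 and 62. The groups did not overlap, and tumour 16 was the lowest tumour. The mean was 10.18 ± 0.15 in tumours (SD, n = 3) and 9.49 ± 0.14 in wild type (SD, n = 2). The change was 0.69 (SE 0.12, 95% interval 0.37 to 1.01), a 1.61-fold difference with an adjusted p of 0.0294. Ephb3 has 1 probe set here, and none of its values lay below the 25th percentile of its array. Its change stayed between 0.59 and 0.79 when any 1 array was left out, but the call was lost each time, at adjusted p = 0.0686, 0.0832 and 0.0833 without tumours 16, 18 and 2, and 0.0975 and 0.143 without wild types 36 and 62. A further set of fits also dropped tied probe sets, meaning those with the same value on every array of a group. Of these fits only those without wild type 36 or wild type 62 lost the call.

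Some markers of Paneth cells, in which Ephb3 is known to be expressed, rose as well. Of 5 measured, 2 were called higher and 0 lower. Over the brightest probe sets of all genes 10.5% were called higher and 9.92% lower. The called markers were the lysozyme gene Lyz1, by 1.13 (SE 0.19), and the protease gene Mmp7, by 3.71 (SE 0.31). Lyz1 was read on a probe set of shared targets, a kind that an alternative fit below leaves out. The summed log2 signal of all 5 was 48.9 to 52.1 in tumours, against 40.8 and 42.5 in wild type, and Defa3 was below the 25th percentile of every array. In bulk samples, more cells of a type and more RNA per cell cannot be told apart, and the part of Paneth cells in the Ephb3 result was not tested.

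The other EphB receptors among the members, Ephb4 and Ephb6, were not called, and Ephb1 and Ephb2 were not analysed here. Ephb4, the receptor for ephrin-B2 that marks veins, had the same value of 7.69 in tumours 16 and 2 and in wild type 36, with 7.71 in tumour 18 and 7.62 in wild type 62. Its change was 0.04 (95% interval -0.06 to 0.14, adjusted p = 0.455). Values this close leave much of the SE to the spread borrowed from all probe sets, so the narrow interval is only partly a measured precision. Ephb6, a receptor whose kinase is inactive and which is known from T cells, had 5.52, 5.77 and 5.97 in tumours 16, 18 and 2, against 5.49 and 5.45 in wild type. All its values lay below the 25th percentile of their array, between 6.04 and 6.07, and the change of 0.29 did not pass (95% interval -0.11 to 0.68, adjusted p = 0.269). Of the T cell receptor complex genes, Cd3g fell by 1.41, with 5.62 to 5.94 in tumours, against 7.05 and 7.27 in wild type, and Cd3e differed by -0.25 without a call (adjusted p = 0.104). All 3 tumour values of Cd3g were below the 25th percentile, so the size of its fall is uncertain, and the part of T cells in the Ephb6 values was not tested.

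Epha1, an epithelial receptor for class A ephrins, was lower in tumours in each of its 3 probe sets, of which 1 was called. In 1422917_at the log2 signal was 6.15, 6.25 and 6.30 in tumours 16, 18 and 2, against 6.85 and 7.25 in wild types 36 and 62. It fell by 0.82 (SE 0.14, 95% interval -1.19 to -0.45), to 0.568 of wild type, with an adjusted p of 0.0283. This was the largest change of any member probe set. In 1432400_at the values were 6.06, 6.05 and 6.27 in tumours, against 6.48 and 6.69 in wild type (change -0.46, adjusted p = 0.0581). In the brightest Epha1 probe set, 1432399_a_at, they were 6.66, 6.69 and 6.73 in tumours, against 6.84 and 6.92 in wild type (change -0.19, adjusted p = 0.0550). The groups overlapped in none of these 3, and the mean of the 3 probe sets fell by 0.49 with an adjusted p of 0.0265 in a fit over genes. The size thus ran from -0.82 to -0.19 between probe sets of the same gene. In 1432400_at the value of tumour 18 lay below the 25th percentile of its array.

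The call of 1422917_at was lost without any single array, at adjusted p = 0.113, 0.103 and 0.0708 without tumours 16, 18 and 2, and 0.0501 and 0.0751 without wild types 36 and 62. With tied probe sets also left out it was lost only without tumour 16 (0.0627) or tumour 18 (0.0569). Its change ran from -1.01 to -0.62 over these fits.

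Epha4, a receptor that binds ephrins of both classes, rose in 1 of its 2 probe sets. In 1421929_at the log2 signal was 6.59, 6.45 and 6.46 in tumours 16, 18 and 2, against 5.91 and 5.87 in wild types 36 and 62. The groups did not overlap, with a change of 0.61 (SE 0.06, 95% interval 0.46 to 0.77), a 1.53-fold difference at an adjusted p of 0.00962. Both wild-type values lay below the 25th percentile of their array, so the size of this difference is uncertain. The brighter probe set, 1421928_at, held 7.26 on 4 of the 5 arrays and 7.36 in tumour 2, a change of 0.04 (95% interval -0.09 to 0.16, adjusted p = 0.646). The probe sets of Epha4 therefore did not show the same change, and which of them follows the transcript was not tested. Their mean changed by 0.32, with an adjusted p of 0.00991 in the fit over genes, which called 2975 of 12393. As 1421928_at was nearly constant, this mean follows 1421929_at and is not separate support. The call of 1421929_at was lost without wild type 36 (adjusted p = 0.0638) or wild type 62 (0.0769), and held in all 5 such fits once tied probe sets were left out.

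Epha2, the epithelial receptor that ephrin-A1 binds, gave no measurable difference. Its 1 probe set held 8.69 on 4 arrays and differed by less than 0.01 in tumour 18. The change was -0.000371 with a 95% interval of -0.07 to 0.07, an interval set by the spread borrowed from other probe sets.

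The class A ligands were not called. Efna1, which encodes ephrin-A1, had 6.65, 6.86 and 6.97 in tumours 16, 18 and 2 in its brighter probe set, 1416895_at, against 7.46 and 6.97 in wild types 36 and 62. Tumour 2 and wild type 62 shared a value, and the change of -0.39 did not pass (95% interval -0.90 to 0.12, adjusted p = 0.247). Its other probe set was dimmer than the 25th percentile on each array, with a change of -0.08. Efna4, which encodes ephrin-A4, had 7.09, 7.17 and 7.05 in tumours, against 7.23 and 7.19 in wild type. The groups of Efna4 did not overlap, but the change was only -0.11 (95% interval -0.24 to 0.02, adjusted p = 0.216).

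Of the class B ligands, Efnb1 showed overlapping groups and Efnb2 lower values in its brighter probe sets, and neither was called. Efnb1, which encodes ephrin-B1, a ligand of EphB receptors made by differentiated intestinal cells, had 8.44, 8.29 and 8.64 in tumours 16, 18 and 2 in its brightest probe set, against 8.49 and 8.29 in wild type. Its 3 probe sets had changes of 0.07, 0.17 and -0.06, with adjusted p-values from 0.620 to 0.769. The widest of their 95% intervals ran from -0.40 to 0.74. In each of them tumour 2 was the highest array and tumour 18 the lowest or next to lowest.

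Efnb2, which encodes ephrin-B2, a ligand of EphB4 that marks arteries, had 7.66, 7.39 and 8.10 in tumours 16, 18 and 2 in its brightest probe set, 1419639_at, against 8.45 and 8.28 in wild types 36 and 62. All tumours lay below wild type, with tumour 2 the nearest, and the change was -0.65 (SE 0.23, 95% interval -1.28 to -0.00767, adjusted p = 0.146). In 1419638_at the values were 6.92, 7.01 and 7.18 in tumours, against 7.40 and 7.32 in wild type (change -0.32, adjusted p = 0.0896). The groups were apart in both. The dimmer probe sets, 1449549_at and 1449548_at, had overlapping groups or a shared value and changes of -0.06 and 0.14. Without tumour 2, the tumour closest to wild type, the change of 1419638_at was -0.39 and was called (adjusted p = 0.0416). That of 1419639_at was then -0.84, not called with tied probe sets kept (0.0511) and called once they were left out (0.0226). Neither was called without tumour 16 or tumour 18, at adjusted p = 0.192 and 0.235 for 1419638_at and 0.331 and 0.258 for 1419639_at.

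Endothelial markers were read beside Ephb4 and Efnb2, and none of the 11 was called, against 20.4% of all genes by brightest probe set. The summed log2 signal of the 11 was 74.6, 75.5 and 72.6 in tumours 16, 18 and 2, against 74.0 and 72.4 in wild types 36 and 62. Kdr, the main receptor for the vessel growth factor VEGF, differed by -0.000567 and the vessel wall gene Plvap by 0.04. Vwf, the von Willebrand factor gene, differed by 0.90 (95% interval 0.05 to 1.75, adjusted p = 0.133), and the tight junction gene Cldn5 by 0.15. Tumours lay above wild type for Vwf and Cldn5, and groups did not overlap in these 2 of the 11, against 50.7% of all genes by brightest probe set. Tie1, Tek and Emcn were dimmer than the 25th percentile on each array. Vwf was dimmer than it in tumour 2 and in both wild types, so the size of its difference is uncertain. The part of endothelium in the Ephb4 and Efnb2 values was not tested.

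**Figure D2:**
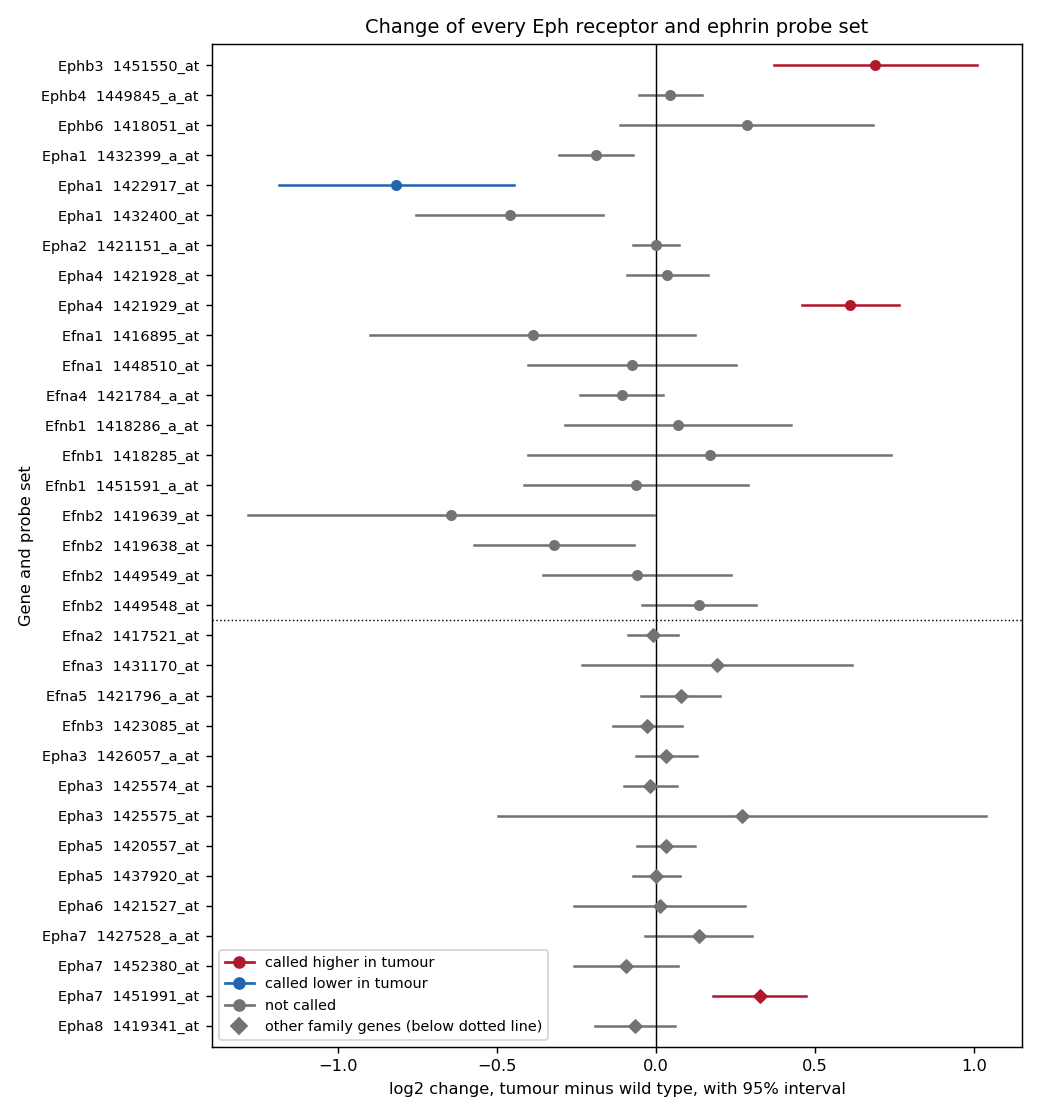
Change of each probe set (tumour minus wild type, log2 scale, horizontal axis) with limma's 95% interval, for the 19 member probe sets (circles, above the dotted line) and 14 of other Eph and ephrin genes (diamonds). Intervals of called probe sets are coloured, and lie above 0 for Ephb3, Epha4 and Epha7 and below 0 for Epha1, while most others lie across 0.

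The rest of the family was dim and changed little. Another 9 Eph and ephrin genes had 14 probe sets, of which 10 lay below the 25th percentile on every array, and 1 was called. That was 1451991_at of Epha7, with 4.46, 4.37 and 4.36 in tumours, against 4.12 and 4.03 in wild type (change 0.33, adjusted p = 0.0280). It was the dimmest probe set of the whole family, and the other Epha7 probe sets had changes of 0.13 and -0.09, so no rise of Epha7 is claimed. In their brightest probe sets, changes were 0.03 for Epha3, 0.03 for Epha5, 0.01 for Epha6, -0.07 for Epha8, -0.00893 for Efna2, 0.19 for Efna3, 0.08 for Efna5 and -0.03 for Efnb3. None of these passed. Ephb1, Ephb2 and Epha10 were not analysed here.

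Most genes that pass on or shape Eph and ephrin signals were not called, and the called ones were lower. Of 41 listed, 35 were measured, 0 were called higher, 5 lower and 30 neither, where over the brightest probe sets of all genes 20.4% were called, 10.5% higher and 9.92% lower. Of the 30 uncalled genes, 15 had positive and 15 negative changes. The list's median change was -0.05, against 0.00398 over all genes. Chn2, a chimaerin that switches off the small GTPase Rac, fell by 0.87 (SE 0.08, adjusted p = 0.0102), with 6.59, 6.61 and 6.41 in tumours 16, 18 and 2, against 7.35 and 7.47 in wild types 36 and 62. Cdc42, a small GTPase of the actin cytoskeleton, fell by 0.72, with 9.75, 9.80 and 10.06 in tumours, against 10.54 and 10.63 in wild type. The GTPase gene Rhoa fell by 0.32 and the Src-family kinase gene Yes1 fell by 0.28. The groups did not overlap in any of these genes. Cdc42 and Rhoa were read on probe sets of shared targets, a kind that an alternative fit below leaves out. Tiam1, a Rac activator that EphA2 and ephrin-B1 are known to recruit, was the highest of the list at 1.05 (SE 0.24) and did not pass (adjusted p = 0.0551). It had 7.45, 7.76 and 7.07 in tumours, against 6.23 and 6.53 in wild type. Adam10, the protease that sheds ephrins, differed by 0.00492 and Cdh1, the E-cadherin gene, by 0.26, and both groups overlapped in each.

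**Figure D3:**
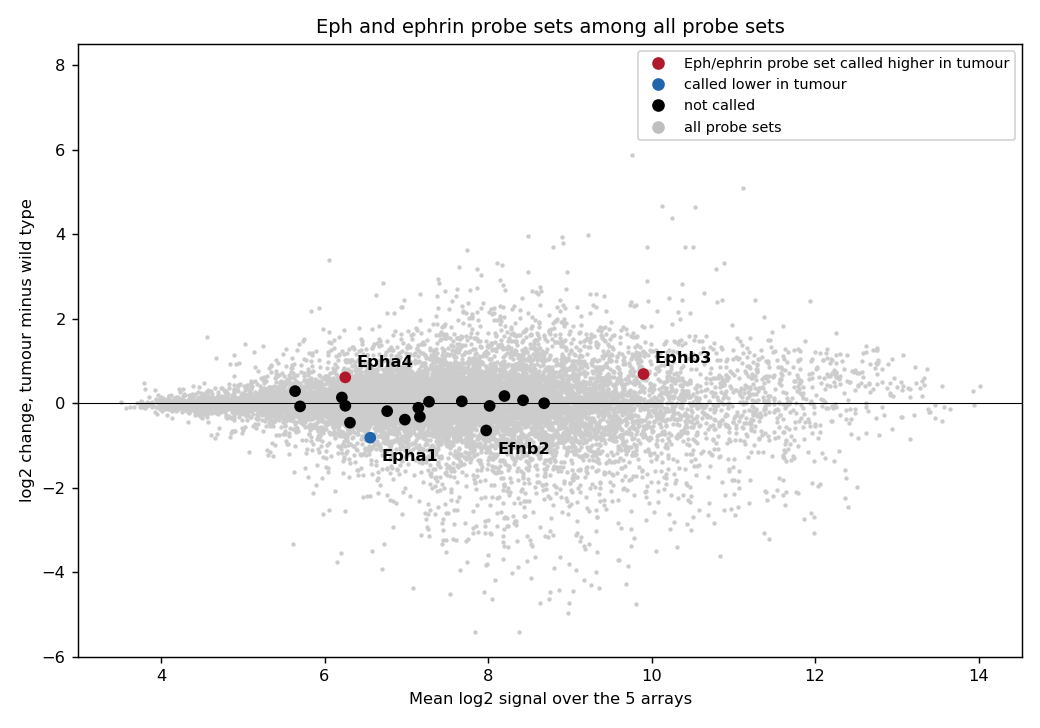
Mean log2 signal over the 5 arrays (horizontal axis) against the log2 change, tumour minus wild type, for all 22626 probe sets (grey) and the 19 member probe sets (coloured where called, black otherwise). The members lie between -0.82 and 0.69 in a cloud that runs from -5.41 to 5.86.

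Wnt target genes other than the EphB receptors were higher or uncalled in tumours. Of 15 measured, 8 were called higher, 0 lower and 7 neither, with a median change of 0.97. Over all genes by brightest probe set, 10.5% were called higher and 9.92% lower. Cd44, a hyaluronan receptor, rose by 3.69 (SE 0.16), the secreted Wnt inhibitor genes Wif1 by 3.39 (SE 0.52) and Notum by 1.91 (SE 0.31), and the transcription factor gene Sox9 by 1.55 (SE 0.11). Wif1 in wild type, at 3.999 and 4.03, was below the 25th percentile. Axin2, a scaffold that limits beta-catenin, rose by 0.97, and Lgr5, a stem cell receptor, differed by 2.02 and did not pass (adjusted p = 0.0532). These named targets have the largest called changes or were picked with their values seen. Of the 15, Prox1, Lef1, Sp5, Rnf43 and Tnfrsf19 (0.02 to 0.62, not called) and Nkd1 (0.63, called higher) had changes below the 0.69 of Ephb3. Prox1, Lef1 and Nkd1 lay below the 25th percentile on every array, so the sizes of their changes are uncertain. No difference in size was tested. Genes of villus enterocytes, the cells in which ephrin-B ligands are known to be high, were lower, with 8 of 9 called and a median of -3.24. The glucose transporter gene Slc2a2 fell by 5.41, the peptidase gene Enpep by 5.41, the lactase gene Lct by 4.41 and the sodium-glucose transporter gene Slc5a1 by 4.38. For Slc2a2 and Enpep 2 of the 3 tumour values were below the 25th percentile of their array, so the sizes of these falls are uncertain. The -0.65 of Efnb2 and the 0.07 of Efnb1, by their brightest probe sets, stood outside the range of that list, -5.41 to -1.26. The list was chosen with earlier results of these data known, so this is a description and not a test.

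Epithelial markers were bright on every array, and markers of some other cell types differed between the groups. The keratin genes Krt8 (13.34 to 13.71 in tumours, against 13.08 and 13.08 in wild type) and Krt18 (12.16 to 12.32 in tumours, against 9.56 and 10.04 in wild type) were among them, as was Epcam (10.79 to 11.20 in tumours, against 11.42 and 11.56 in wild type). Krt18 rose by 2.44 and Krt19 by 1.20, Vil1, a microvillus protein gene, fell by 1.26, and Krt20 differed by -1.82 without a call. Of 7 fibroblast genes 1 was called higher (the matrix gene Dcn, by 2.60), with a summed signal of 59.8, 65.1 and 54.0 in tumours 16, 18 and 2, against 49.95 and 46.9 in wild types 36 and 62. Of 7 leukocyte genes 2 were called lower, Ptprc at -1.94 and Cd3g at -1.41 (both below the 25th percentile in all 3 tumours), with a summed signal of 46.5 to 48.3 in tumours, against 51.3 and 50.01 in wild type. Of 6 smooth muscle genes Acta2 rose by 1.22 and Mylk fell by 1.68 (sums 45.6 to 45.8 in tumours, against 46.1 and 45.6 in wild type). None of the 5 neuron and glia genes was called (sums 29.8 to 30.1 in tumours, against 29.9 and 29.9 in wild type), the brightest being Sox10 (0.02) and S100b (0.04). Over all genes by brightest probe set, 10.5% were called higher and 9.92% lower. The part of these cell types in the members' values was not tested.

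**Figure D4:**
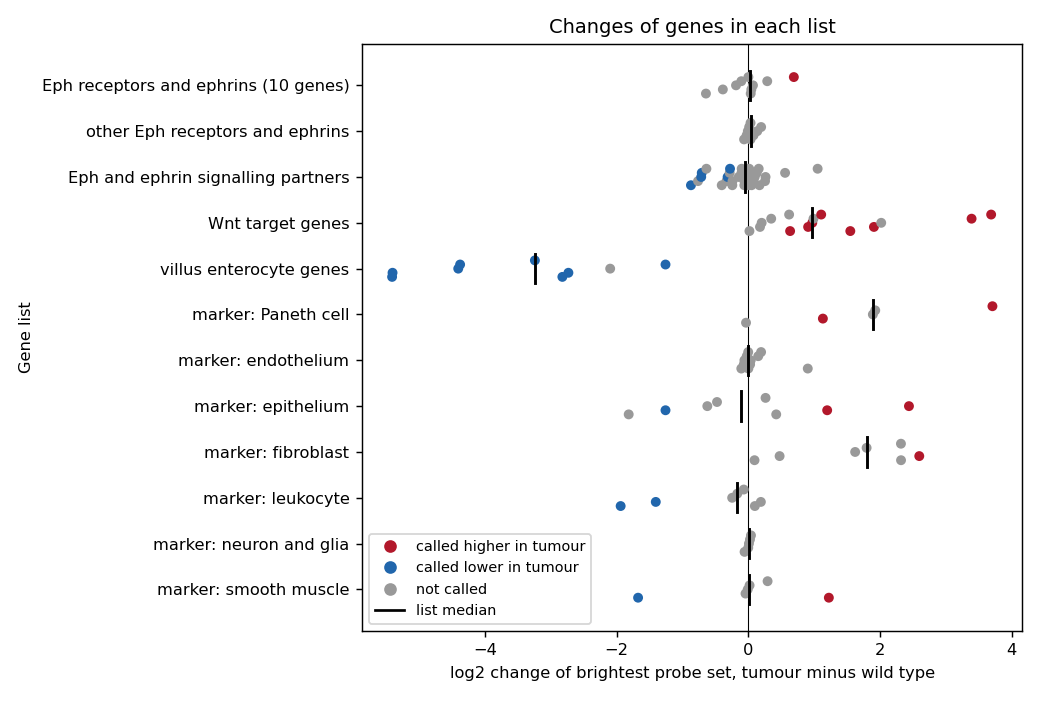
Change of the brightest probe set of each gene (tumour minus wild type, log2 scale, horizontal axis) by gene list, with the list median as a black bar. The 10 Eph and ephrin genes lie around a median of 0.02, while Wnt target genes lie around 0.97 and villus enterocyte genes around -3.24.

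The genes whose values followed a member most closely were found by the root mean square difference of gene-centred log2 values over the 5 arrays. Nearest to Ephb3 were Arfgap2 (0.0240), which encodes a regulator of vesicle coats, Tmem40 (0.0467) and Ercc1 (0.0508), which encodes a subunit of a DNA repair nuclease. Arfgap2 had 10.37, 10.66 and 10.53 in tumours 16, 18 and 2, against 9.88 and 9.68 in wild types 36 and 62, the same order of arrays as Ephb3. Nearest to Efnb2, the member with the lowest change in its brightest probe set, were Smdt1 (0.0328), a subunit of the mitochondrial calcium channel, Ifngr2 (0.0425), a chain of the interferon gamma receptor, and Igsf9 (0.0625). With 5 arrays in 2 groups and 12393 genes, close profiles of this kind are a description only.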

How the data were processed

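The deposited series table holds 22690 probe sets by 5 arrays, in log2 units as judged from the range of its values. Per the submitters' processing notes, the authors worked with affy in R. Background correction, normalization and summary method are not given in the sources used here. Values were used as deposited. The 64 control probe sets were set aside, and the platform annotation kept by GEO gave 1 symbol to 20380 of the other 22626 probe sets.

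All 22626 probe sets were fitted in R 4.3.3 by limma 3.58.1 (functions lmFit and eBayes, group as the only term, two-sided). "Called" means an adjusted p under 0.05 after Benjamini-Hochberg adjustment over all of them. A change is the tumour mean less the wild-type mean in log2 units, given with its moderated standard error (SE) or 95% interval, from 3 residual and 1.19 prior degrees of freedom. Gene lists were read by the brightest probe set of each gene (highest mean over the 5 arrays), from the same fit. The steps were tested on simulated data with independent noise, variances that were set and not taken from these data, and no equal values. That test does not cover the equal values described below. The members and lists were chosen with earlier results of these data known. Genes named are all members, all other family genes with a probe set, and from each list up to 4 called genes with the largest change, the largest called change against the majority, or the 2 brightest where none was called. Yes1, Tiam1, Adam10, Defa3, Tie1, Tek, Emcn, Lgr5, Axin2, Cdh1, Epcam, Krt8 and Krt20 were named after their values were seen, as were Vwf, Cldn5, Cd3e, Nkd1, Prox1, Lef1, Sp5, Rnf43 and Tnfrsf19. In the signalling list 1 called gene, whose change is larger than those of Rhoa and Yes1, is not reported here. Promoter sequences are RefSeq's, build GRCm38.p6. Alternatives were other normalization, filters, variance models and leaving out each array.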

Additional observations from a re-analysis of the deposited data

How the results depend on the processing

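With every array kept, the calls of Ephb3, of Epha4 in 1421929_at and of Epha1 in 1422917_at held under each alternative that tested them, apart from the minimum log2 change of 1, which left 0 member probe sets called higher, 0 called lower, and 1493 of all probe sets (677 higher and 816 lower). A filter at the 40th percentile of mean signal removed 1421929_at of Epha4 and left 1 member probe set called higher. The number called lower was 3 with medians centred, with array weights and with quantile normalization, and 2 with trend and robust settings and with tied probe sets left out, the additions being further Epha1 probe sets. Without probe sets of shared targets, 2224 of all probe sets were called, 1024 higher and 1200 lower. Epha2 changed sign with quantile normalization (0.040) and was not called.

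When 1 array was left out, with or without tied probe sets (an alternative chosen after seeing the data), 0 to 2 member probe sets were called higher and 0 to 4 lower, and over all probe sets 0 to 4790 were called, 0 to 2637 higher and 0 to 2153 lower. The count of 0 came without wild type 62, with limma and tied probe sets kept, and 6682 probe sets then had an unadjusted p under 0.05. A wild-type group of 1 array takes its spread from the tumours. Uncalled changes that turned sign ran from -0.26 to 0.11 for 1448510_at of Efna1, from -0.029 to 0.17, -0.0048 to 0.31 and -0.15 to 0.040 for 1418286_a_at, 1418285_at and 1451591_a_at of Efnb1, and from -0.13 to 0.024 for 1449549_at of Efnb2. The number of arrays, and the lack of presence calls in the values used here, limit what can be said of dim probe sets.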

Other observations

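Exactly equal values on several arrays were common in the deposited table, and they fell on several family genes. Of all probe sets tested, 4466 (19.7%) held 1 value on at least 3 of the 5 arrays. This share was 32.5% in the 25% of probe sets with the lowest mean signal and 4.35% in the 25% with the highest. Among the 19 member probe sets 3 were of this kind, those of Epha2 and Ephb4 and 1421928_at of Epha4. Among the 14 probe sets of other family genes 5 were, in Efna2, Efnb3, Epha3, Epha7 and Epha8. In Epha2 the value 8.69 stood on 4 arrays at a mean signal in percentile 86.4 of all probe sets. How the equal values arose was not tested.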
